A study of Arabidopsis thaliana with 16 samples.

Results

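The genes described here are the 9 that encode the core machinery by which Arabidopsis thaliana copies existing DNA methylation: MET1, VIM1, VIM3, DDM1, CMT3, CMT2, SUVH4, SUVH5 and SUVH6. They were chosen by name for that role, from 34262 genes listed in the deposited tables, and all 9 passed the low-count filter that left 19224 genes for testing. Poly(A) RNA from rosette leaves of Col-0 plants was sequenced in 16 libraries, 4 biological replicates in each of 4 groups, after a spray with jasmonic acid (JA) or water at 2 weeks of age and a second spray at 5 weeks. Each library pooled 8 leaves from 2 plants, and leaves were taken 4 h after the adult spray. JA_JA plants received 1 mM JA as seedlings and 0.1 mM JA as adults. JA_W plants received 1 mM JA as seedlings and water as adults. W_JA plants received water as seedlings and 0.1 mM JA as adults, and W_W plants received water both times. Every solution in all groups contained the wetting agent Silwet L-77 at 0.02%, and the water sprays carried the ethanol of the matching JA solution. The seedling spray is called the history of a plant below, and the adult spray its challenge.

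DNA methylation in plants stands on cytosines in CG, CHG and CHH contexts, where H is any base but G. Methylation at CG sites is copied after replication by the methyltransferase MET1, which VIM proteins guide to newly replicated DNA by binding half-methylated sites. CHG and CHH methylation in heterochromatin is kept by the chromomethylases CMT3 and CMT2, which bind histone H3 methylated on lysine by SUVH4 and its relatives SUVH5 and SUVH6, while the remodeller DDM1 opens nucleosome-packed DNA to all of these enzymes. In leaves this system keeps transposable elements silent, and JA is a hormone of the response to wounding and chewing insects.

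Depth was even, with 32190193 to 34319939 counted reads per library. The 9 genes had from 34 reads (VIM3) to 1834 reads (CMT2) in a single library. The leaf label was checked against markers: the 3 mesophyll genes CAB3, RBCS1A and LHCB2.1 summed to 26630 to 33930 CPM (counts scaled to library depth) in JA_JA, 26620 to 32320 in JA_W, 18650 to 25120 in W_JA and 18160 to 25260 in W_W. Of the shoot meristem genes STM, WUS and CLV3, none had a read in JA_JA, JA_W or W_JA, and 2 of 3 had none in W_W, where the 3 summed to at most 0.0256 CPM. The JA label was checked with VSP1, a JA-induced storage protein of leaves, which ranged from 2254 to 3402 CPM in JA_JA against 5.79 to 14.9 CPM in JA_W, and from 1034 to 1381 CPM in W_JA against 0.388 to 1.13 CPM in W_W. Among the unchallenged libraries, JA_W replicate 1 and W_W replicate 4 came closest to each other on the first principal component, and values without these libraries are given where they end a call. In these bulk leaf samples, fewer cells of a type and less RNA per cell cannot be told apart.

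JA history without challenge went with higher RNA of 6 of the 9 genes. In JA_W against W_W leaves, MET1, VIM1, VIM3, DDM1, CMT3 and CMT2 rose between 1.45-fold and 2.53-fold, and none of the 9 fell. SUVH4, SUVH5 and SUVH6 did not pass the test. A gene is said to have risen or fallen where the edgeR quasi-likelihood test gave an adjusted p under 0.05 over all genes tested. By that rule 64.9% of all genes were called in this comparison, 33.8% as higher and 31.1% as lower, so 6 called genes of 9 is close to the share of all genes, and the common direction is read against the share called higher. Of all genes called, 52.1% were higher with TMM scaling, 42.4% with library totals and 58.3% with upper-quartile scaling. In all 6 risen genes every JA_W library lay above every W_W library, as in 30.7% of all genes, while 28.7% lay wholly below. The median log2 change was 0.70 over the 9 genes, against 0.05 over all genes tested.

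**Figure D1:**
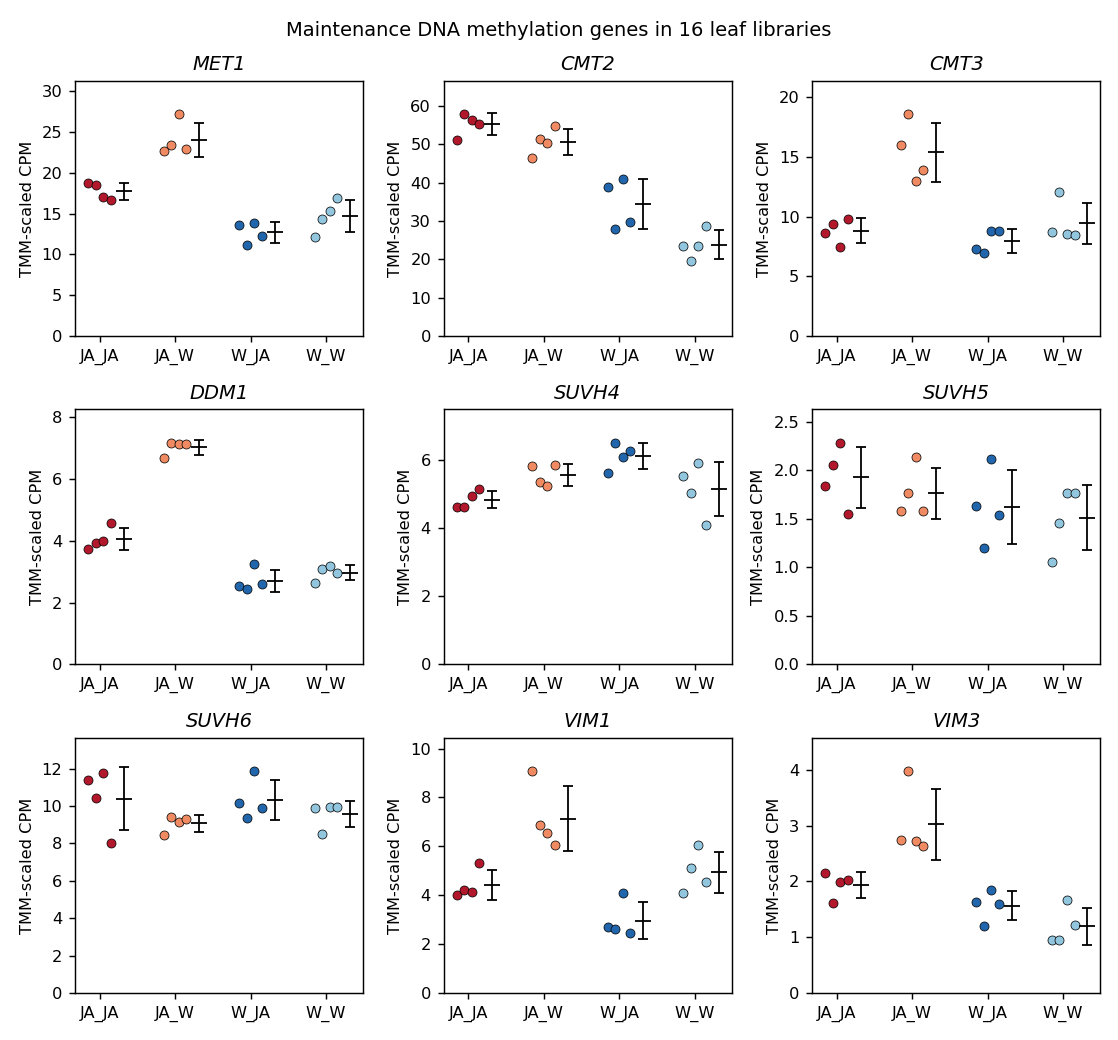
TMM-scaled CPM of each of the 9 genes in every library (points) with the group mean and SD (bar), for JA_JA, JA_W, W_JA and W_W from left to right. JA_W is the highest group for MET1, VIM1, VIM3, DDM1 and CMT3, with means of 24.1, 7.14, 3.02, 7.03 and 15.4 CPM, while CMT2 is highest in JA_JA at 55.2 CPM.

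For history after the challenge 5 of the 9 genes passed, against 6 without challenge, where 64.9% of all genes were called. In JA_JA against W_JA leaves 4 genes rose (MET1, VIM1, DDM1 and CMT2) and SUVH4 fell, where 40.1% of all genes were called, 18.9% as higher and 21.2% as lower. MET1, DDM1 and CMT2 had all JA_JA libraries above all W_JA libraries, as in 14.3% of genes, and SUVH4 had all below, as in 18.4%. The median log2 change was 0.31 over the 9 genes, against 0.01 over all genes. Of all genes called, 47.1% were higher, which became 32.7% with library totals as scaling and 59.9% with upper-quartile scaling.

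The challenge itself went with lower RNA in plants with JA history. In JA_JA against JA_W leaves 5 genes fell (MET1, VIM1, VIM3, DDM1 and CMT3) and none rose, where 31.9% of genes were called, 16.5% as lower and 15.4% as higher. Libraries of JA_JA lay wholly below those of JA_W for these 5 genes and for SUVH4, as in 17.3% of all genes, while 16.2% lay wholly above. The median log2 change was -0.44 over the 9 genes, against -0.01 over all genes. Of all genes called, 48.3% were higher, and 32.1% with library totals. In plants with water history, W_JA against W_W, only CMT2 rose and only VIM1 fell among the 9 genes, where 26.8% of genes were called, 13.9% as higher and 12.9% as lower. With library totals 30.9% of the calls were higher, against 52.0% with TMM. The W_JA and W_W libraries overlapped for all 9 genes, whereas 12.5% of all genes lay wholly above and 12.2% wholly below. JA_W libraries enter the first and the third of these comparisons, so the same values weigh on the rise with history and on the fall with challenge.

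**Figure D2:**
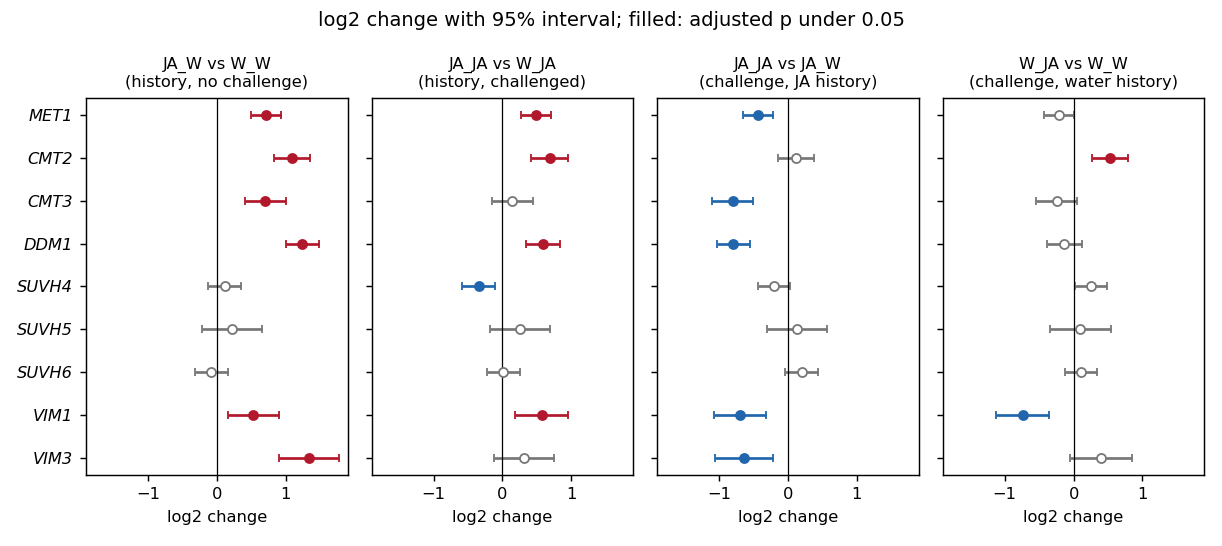
Log2 change ± 95% interval of the 9 genes in the 4 pairwise comparisons, with filled symbols for an adjusted p under 0.05 (red higher, blue lower) and open symbols for the rest. Intervals of MET1, VIM1, VIM3, DDM1, CMT3 and CMT2 lie above 0 in JA_W against W_W, and those of MET1, VIM1, VIM3, DDM1 and CMT3 lie below 0 in JA_JA against JA_W.

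MET1 (AT5G49160) is the main CG methyltransferase and spans chr5:19932114-19938470 on the plus strand of TAIR10.1, with 12 exon blocks. It had 18.7, 18.6, 17.0 and 16.7 CPM in JA_JA replicates 1 to 4, and 22.7, 23.4, 27.2 and 22.9 CPM in JA_W. It had 13.6, 11.1, 13.9 and 12.2 CPM in W_JA, and 12.2, 14.4, 15.3 and 16.9 CPM in W_W. All JA_W values are thus above all others, and JA_JA values lie above W_JA but touch the range of W_W. MET1 rose by 0.71 ± 0.10 on the log2 scale in JA_W against W_W (SE; edgeR adjusted p = 1.33e-05), and by 0.48 ± 0.10 in JA_JA against W_JA (adjusted p = 0.00179). The challenge went with a change of -0.44 ± 0.10 in JA history (adjusted p = 0.00333) and of -0.21 ± 0.10 in water history, which did not pass (adjusted p = 0.152). That change passed when libraries were scaled by their totals alone (-0.33, adjusted p = 0.0423) and without W_W replicate 1 (-0.29, adjusted p = 0.0453).

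VIM1 (AT1G57820, chr1:21413981-21418115, minus strand) binds half-methylated CG sites and is required with its relatives for MET1 to act. JA_JA replicates had 3.99, 4.23, 4.11 and 5.31 CPM, and JA_W replicates had 9.08, 6.88, 6.56 and 6.04 CPM. W_JA replicates had 2.72, 2.61, 4.08 and 2.45 CPM, and W_W replicates had 4.07, 5.12, 6.04 and 4.52 CPM. JA_W was the highest group, and its lowest value, 6.038, was only just above the top W_W value, 6.036. VIM1 is the gene of the 9 that fell with the challenge under both histories, by 0.74 ± 0.18 in W_JA against W_W (edgeR adjusted p = 0.00619) and by 0.70 ± 0.18 in JA_JA against JA_W (adjusted p = 0.00613). The difference between these challenge changes was 0.04 (95% interval -0.49 to 0.57). With history it rose by 0.53 ± 0.17 without challenge (adjusted p = 0.0130) and by 0.57 ± 0.18 under challenge (adjusted p = 0.0205). The first call was lost without JA_W replicate 1 (0.40, adjusted p = 0.0564), without both that library and W_W replicate 4 (0.36, adjusted p = 0.111) and with library totals as scaling (0.41, adjusted p = 0.0711), and the second with library totals (0.47, adjusted p = 0.0696) and without W_JA replicate 2, W_JA replicate 4 or JA_JA replicate 4.

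VIM3 (AT5G39550, chr5:15837178-15840678, minus strand) is a close relative of VIM1 and the gene with the largest rise among the 9. It had 2.15, 1.61, 1.99 and 2.02 CPM in JA_JA, and 2.74, 3.98, 2.73 and 2.64 CPM in JA_W. W_JA libraries held 1.63, 1.201, 1.85 and 1.59 CPM, and W_W libraries held 0.948, 0.946, 1.66 and 1.22 CPM. JA_W stood above the other groups in every library, and JA_JA overlapped with W_JA. The log2 change was 1.34 ± 0.21 in JA_W against W_W (edgeR adjusted p = 2.68e-05), while JA_JA against W_JA gave 0.31 ± 0.21 (adjusted p = 0.245). The fall with challenge in JA history, -0.64 ± 0.20 (adjusted p = 0.0218), was lost without JA_W replicate 2 (-0.48, adjusted p = 0.0968) or JA_JA replicate 2 (-0.53, adjusted p = 0.0755). Of 1818 windows of 50 bases in the VIM3 exons, 268 also occur in VIM2 or VIM4, so reads there could not be placed by sequence alone. VIM2 had 43 reads and VIM4 had 1 read over all 16 libraries. Every other member had only windows found nowhere else in the annotated exons.

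DDM1 (AT5G66750, chr5:26648897-26653191, plus strand), the nucleosome remodeller on which both CG and non-CG methylation of heterochromatin depends, averaged 7.03 ± 0.239 CPM in JA_W (SD, n = 4), above every library of the other groups. JA_JA libraries had 3.73, 3.94, 3.98 and 4.57 CPM, and JA_W libraries had 6.67, 7.17, 7.13 and 7.13 CPM. Those of W_JA had 2.52, 2.43, 3.24 and 2.62 CPM, and those of W_W had 2.62, 3.10, 3.18 and 2.96 CPM. The JA_W values do not overlap with any other group, the JA_JA values lie between them and both water-history groups, and W_JA overlaps with W_W. DDM1 was 2.37-fold higher in JA_W than in W_W (log2 change 1.24 ± 0.11, edgeR adjusted p = 1.85e-07) and 1.5-fold higher in JA_JA than in W_JA (0.58 ± 0.12, adjusted p = 0.00114). It fell by 0.79 ± 0.11 with the challenge in JA history (adjusted p = 4.86e-05), whereas the change in water history was -0.13 ± 0.12 (adjusted p = 0.450).

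CMT3 and CMT2 are the chromomethylases mainly of CHG and of CHH sites. Both rose with history before the challenge, and with the challenge in JA history CMT3 fell while CMT2 did not pass. CMT3 (AT1G69770) had 8.68, 9.37, 7.44 and 9.85 CPM in JA_JA, and 16.1, 18.6, 13.03 and 14.0 CPM in JA_W. It had 7.32, 6.97, 8.83 and 8.82 CPM in W_JA, and 8.75, 12.1, 8.56 and 8.49 CPM in W_W. Every JA_W library of CMT3 lay above every other library, and the other 3 groups overlapped. CMT3 rose by 0.70 ± 0.14 with history before the challenge (JA_W against W_W, edgeR adjusted p = 0.000326) and fell by 0.80 ± 0.14 with the challenge in JA history (JA_JA against JA_W, adjusted p = 0.000363). Under challenge, JA_JA against W_JA gave 0.15 (95% interval -0.16 to 0.45, adjusted p = 0.439), and W_JA against W_W gave -0.25 (-0.55 to 0.05, adjusted p = 0.225).

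CMT2 (AT4G19020) had 51.2, 57.9, 56.4 and 55.4 CPM in JA_JA, and 46.4, 51.4, 50.4 and 54.7 CPM in JA_W. It had 38.9, 27.9, 41.1 and 29.7 CPM in W_JA, and 23.4, 19.6, 23.6 and 28.8 CPM in W_W. Both JA-history groups lay above both water-history groups in every library, and JA_JA overlapped with JA_W. The log2 change with history was 1.09 ± 0.13 in JA_W against W_W (edgeR adjusted p = 1.54e-06) and 0.68 ± 0.12 in JA_JA against W_JA (adjusted p = 0.000551). With the challenge CMT2 rose by 0.53 ± 0.13 in water history (adjusted p = 0.00479), and in JA history the change was 0.12 (95% interval -0.14 to 0.38, adjusted p = 0.484). CMT2 is the 1 gene of the 9 called higher with the challenge.

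The ratio of CMT2 reads to CMT3 reads, which does not depend on how libraries are scaled, was 5.90, 6.18, 7.58 and 5.63 in JA_JA and 2.89, 2.77, 3.86 and 3.92 in JA_W. It was 5.31, 4.00, 4.65 and 3.37 in W_JA and 2.67, 1.62, 2.76 and 3.39 in W_W. JA_JA libraries thus all had the higher ratio against JA_W, and W_JA overlapped with W_W through its lowest library, at 3.37, and the highest of W_W, at 3.39. The ratio is not adjusted for transcript length and is given as a description.

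**Figure D3:**
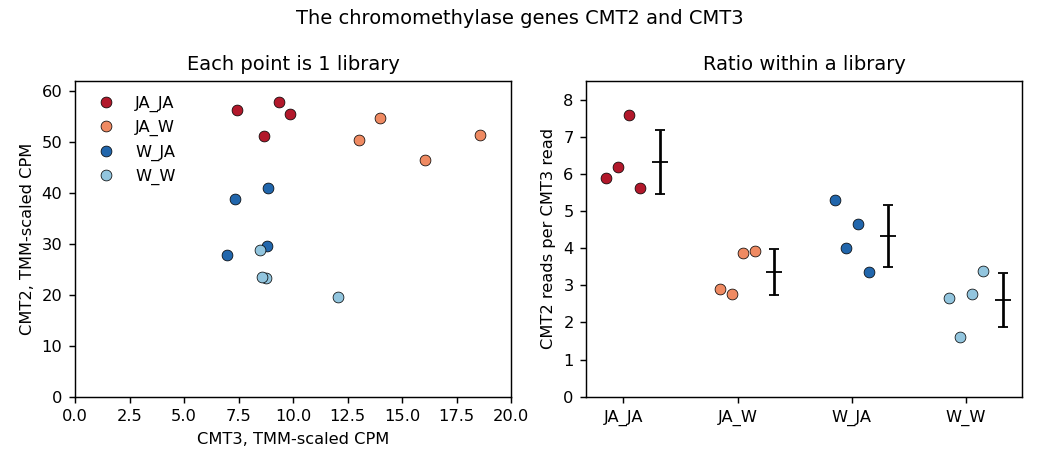
Left, CMT2 against CMT3 level (TMM-scaled CPM), with 1 point per library coloured by group; right, CMT2 reads per CMT3 read in each library with the group mean and SD. JA_W libraries lie at CMT3 levels of 13.03 to 18.6 CPM, and the 4 JA_JA libraries lie at 7.44 to 9.85 CPM of CMT3. CMT2 overlaps between JA_JA (51.2 to 57.9 CPM) and JA_W (46.4 to 54.7 CPM), and the water-history libraries lie at lower CMT2. The mean ratio is 6.32 in JA_JA, 3.36 in JA_W, 4.33 in W_JA and 2.61 in W_W.

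The sequences upstream of these genes are shown because the ratio of CMT2 to CMT3 was not the same in all groups and each held a motif that no other member held. The windows run from 250 bases before the annotated start to the 50th base of the transcript, in RefSeq TAIR10.1, 5′ to 3′ on the strand of the gene, at chr4:10414178-10414477 on the plus strand for CMT2 and chr1:26253638-26253937 on the minus strand for CMT3. Capitals mark matches to the motifs searched on both strands, namely the G-box CACGTG and the E2F-type sequences TTTCCCGC and TTTGGCGC.
CMT2: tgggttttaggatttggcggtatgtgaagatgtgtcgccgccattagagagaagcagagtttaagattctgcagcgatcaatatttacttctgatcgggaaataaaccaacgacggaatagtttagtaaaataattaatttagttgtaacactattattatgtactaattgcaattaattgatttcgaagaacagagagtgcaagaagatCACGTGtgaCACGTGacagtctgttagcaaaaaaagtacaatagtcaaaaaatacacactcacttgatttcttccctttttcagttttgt
CMT3: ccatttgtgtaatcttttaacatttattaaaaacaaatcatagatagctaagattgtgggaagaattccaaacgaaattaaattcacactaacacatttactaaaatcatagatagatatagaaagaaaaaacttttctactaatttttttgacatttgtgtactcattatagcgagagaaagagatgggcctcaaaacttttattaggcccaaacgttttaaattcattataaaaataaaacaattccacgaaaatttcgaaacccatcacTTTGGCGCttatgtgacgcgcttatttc
The CMT2 window held the G-box at 2 places, whose first bases lie 40 and 31 bases before the start, and 7.68% of 27443 promoters of this length hold at least 1. The CMT3 window held TTTGGCGC from base 23 of the transcript, and 1.21% of promoters hold either E2F-type sequence. The matches do not overlap with each other. G-boxes are bound by bHLH and bZIP factors, among them MYC2 of the JA pathway, and E2F factors act on genes of the S phase. Of 25 DNA replication genes listed below, 11 held an E2F-type sequence and 0 held a G-box. These matches describe letters in a window, and no factor binding was measured here.

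Of the 3 histone methyltransferases SUVH4 alone passed, in 1 pairwise comparison. SUVH4 (AT5G13960, chr5:4501362-4506250, plus strand), also named KRYPTONITE, had 4.63, 4.64, 4.96 and 5.14 CPM in JA_JA, and 5.84, 5.35, 5.26 and 5.86 CPM in JA_W. Libraries of W_JA held 5.62, 6.52, 6.11 and 6.29 CPM, and those of W_W held 5.55, 5.04, 5.93 and 4.09 CPM. JA_JA was wholly below JA_W and W_JA, and W_W covered a wide range that overlaps with each of the others. SUVH4 was 1.27-fold lower in JA_JA than in W_JA (log2 change -0.34 ± 0.11, edgeR adjusted p = 0.0237), a call lost with upper-quartile scaling (-0.26, adjusted p = 0.0648) and without replicate 1 or 2 of JA_JA or replicate 2 or 4 of W_JA. In JA_W against W_W it gave 0.11 (95% interval -0.12 to 0.35, adjusted p = 0.385).

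SUVH5 (AT2G35160, chr2:14822774-14826194, plus strand) and SUVH6 (AT2G22740, chr2:9662638-9667038, minus strand) act beside SUVH4 on histone H3, and passed the test in none of the 4 pairwise comparisons. SUVH6 passed in JA_JA against JA_W without JA_JA replicate 4 (0.33, edgeR adjusted p = 0.0191, against 0.20 and 0.198 with all libraries). SUVH5 ranged from 1.55 to 2.29 CPM in JA_JA, 1.58 to 2.14 in JA_W, 1.201 to 2.12 in W_JA and 1.06 to 1.77 in W_W. SUVH6 ranged from 8.03 to 11.8 CPM in JA_JA, 8.44 to 9.42 in JA_W, 9.37 to 11.9 in W_JA and 8.52 to 9.97 in W_W. All groups overlap for both genes. With history before the challenge, the 95% interval of the log2 change in JA_W against W_W was -0.22 to 0.66 for SUVH5 and -0.32 to 0.16 for SUVH6. An antisense RNA, AT2G07845, covers 1086 exon bases of SUVH6, and whether the counting used strand is not given in the sources used here. The shared bases are 40.66% of the SUVH6 exons. At most 4 reads per library were counted to AT2G07845. If strand was not used, reads in the shared bases may be missing from the counts of both genes. The low count of AT2G07845 cannot show whether this was so, and the level of SUVH6 per kilobase below has the same limit.

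Whether the response to the challenge depended on history was tested as the interaction, the challenge change in JA history minus that in water history. It passed for DDM1 (-0.66 ± 0.16, edgeR adjusted p = 0.0113) and VIM3 (-1.03 ± 0.29, adjusted p = 0.0222), both lower, where 18.4% of all genes were called, 10.4% as lower and 8.01% as higher. Of all genes called in the interaction, 43.5% were higher, and 52.0% with RLE scaling. For VIM3 the challenge change was -0.64 in JA history and 0.39 in water history, and the interaction was lost without JA_W replicate 2 (-0.87, adjusted p = 0.0557) or JA_JA replicate 2 (-0.90, adjusted p = 0.0518). For CMT3 it was -0.56 (95% interval -0.98 to -0.13, adjusted p = 0.0623), for SUVH4 -0.46 (-0.79 to -0.12, adjusted p = 0.0553) and for CMT2 -0.41 (-0.78 to -0.03, adjusted p = 0.116). The CMT3 value passed without W_W replicate 2, W_JA replicate 2 or JA_W replicate 3, the CMT2 value without W_W replicate 4 alone or together with JA_W replicate 1 (-0.55, adjusted p = 0.0283), and the SUVH4 value with upper-quartile scaling or without W_W replicate 3. MET1 gave -0.23 (-0.54 to 0.07), while SUVH5, SUVH6 and VIM1 gave 0.03, 0.09 and 0.04. The median was -0.41 over the 9 genes and -0.0030 over all genes.

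Levels were also set per kilobase of exon, so that genes can be compared with each other. CMT2 was the most abundant of the 9 in each group, at 12.8 ± 0.668 RPKM in JA_JA, 11.8 ± 0.791 in JA_W, 7.97 ± 1.52 in W_JA and 5.52 ± 0.877 in W_W (SD, n = 4). Below it in W_W came SUVH6 (3.58), CMT3 (3.09) and MET1 (2.90), whose libraries overlap, then SUVH4 (2.02) and VIM1 (1.99), then DDM1 (1.07). VIM1 also overlaps with MET1 there, through its highest library (2.43) and the lowest of MET1 (2.4). VIM3 (0.528) and SUVH5 (0.453) were lowest and overlap. In JA_W the order after CMT2 was CMT3 (5.03), MET1 (4.75), SUVH6 (3.40), VIM1 (2.88), DDM1 (2.54), SUVH4 (2.18), VIM3 (1.34) and SUVH5 (0.528). There CMT3 and MET1 overlap, as do SUVH6 and VIM1, and VIM1 and DDM1, while VIM3 no longer overlaps with SUVH5. In W_JA it was SUVH6 (3.86), then CMT3 (2.6), MET1 (2.51) and SUVH4 (2.40), which overlap, then VIM1 (1.19) and DDM1 (0.975), which overlap, then VIM3 (0.694) and SUVH5 (0.485), which overlap. In JA_JA it was SUVH6 (3.89), MET1 (3.5), CMT3 (2.88), SUVH4 (1.9), VIM1 (1.78), DDM1 (1.46), VIM3 (0.860) and SUVH5 (0.578). There SUVH6 overlaps with MET1 and CMT3, and VIM1 with SUVH4 and DDM1.

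Relatives outside the core set differed widely in counted reads over all 16 libraries. SUVH1 had 11694, SUVH3 had 8012 and VIM6 had 1239, while VIM5, SUVH7 and SUVH10 had 0. VIM2 and VIM4 share sequence with VIM3, so that reads in the shared sequence may be missing from their counts. Of 13 family members (VIM2, VIM4, VIM5, VIM6, MET2a, MET2b, MET3, CMT1, SUVH1, SUVH3, SUVH7, SUVH8 and SUVH10), 4 had enough reads to test. VIM6, a relative of VIM1, rose by 1.59 ± 0.21 in JA_W against W_W (edgeR adjusted p = 5.21e-06) and by 0.72 ± 0.21 in JA_JA against W_JA (adjusted p = 0.0137), and fell by 0.87 ± 0.20 in JA_JA against JA_W (adjusted p = 0.00320). SUVH1, an activator that reads methylated DNA, rose by 0.37 ± 0.10 in JA_W against W_W and fell by 0.38 ± 0.10 in JA_JA against JA_W. In W_JA against W_W the edgeR test called none of the 4, with 0 at an unadjusted p under 0.05, and SUVH1 passed in the interaction (-0.43 ± 0.14, adjusted p = 0.0407).

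The enzymes that make and recycle the methyl donor S-adenosylmethionine, which these methyltransferases use, moved in both directions. Of 12 listed genes, 9 rose and 2 fell in JA_W against W_W, with a median log2 change of 0.81, where 33.8% of all genes were called higher and 31.1% lower. SAHH2, which clears the by-product of methylation, rose by 2.33 ± 0.21, and the methionine synthases MS2 and MS1 rose by 1.99 ± 0.18 and 1.16 ± 0.14. In JA_JA against JA_W, 8 fell and 2 rose (median -0.59), where 16.5% of all genes were called lower and 15.4% higher. The falls were led by MS2 (-1.39 ± 0.18), MAT3 (-0.92 ± 0.11) and MTO3 (-0.83 ± 0.12), the last pair being S-adenosylmethionine synthetases. Under challenge, in JA_JA against W_JA, 3 rose and 1 fell (median 0.14), where 18.9% of all genes were called higher and 21.2% lower. SAHH2 was at 0.94 ± 0.21, the adenosine kinase ADK1 at 0.61 ± 0.10 and ADK2 at 0.34 ± 0.10. In W_JA against W_W, 3 rose and 1 fell (median 0.13), where 13.9% of all genes were called higher and 12.9% lower. SAM2 was at 0.87 ± 0.12, SAHH2 at 0.63 ± 0.21 and SAM1 at -0.38 ± 0.11. The interaction passed for 8 of 12, 7 of them lower, where 18.4% of all genes were called, 10.4% as lower. Among the lower genes were MS2 at -1.56 ± 0.25, SAHH2 at -1.39 ± 0.29 and MTO3 at -0.92 ± 0.17.

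DNA replication genes encode products that work where maintenance methylation takes place. Of 24 tested, 17 rose, 0 fell and 7 did not pass in JA_W against W_W (median 0.52). Of all genes 64.9% were called there, 33.8% as higher. Among the risen genes were LIG1 (DNA ligase, 0.90 ± 0.11), PCNA1 (the sliding clamp, 0.90 ± 0.18) and MCM3 (the replicative helicase, 0.85 ± 0.14). In JA_JA against JA_W, 12 fell, 0 rose and 12 did not pass (median -0.43), where 16.5% of all genes were called lower, led by CDT1A (origin licensing, -0.98 ± 0.13), TSO2 (ribonucleotide reductase, -0.77 ± 0.10) and PCNA1 (-0.71 ± 0.18). Between the challenged groups, JA_JA against W_JA, LIG1 alone rose (0.34 ± 0.11) and RBR1 alone fell (-0.27 ± 0.09), with a median of 0.04. Of all genes 40.1% were called there. In W_JA against W_W, RNR1 rose (0.36 ± 0.09) and FAS1 fell (-0.46 ± 0.12), with a median of 0.09, where 26.8% of all genes were called. The interaction passed for 11 of 24, all lower, where 18.4% of all genes were called, 10.4% as lower. CDT1A was at -0.91 ± 0.18, MCM2 at -0.90 ± 0.23 and MCM7 at -0.84 ± 0.25. The 25 listed genes summed to 258 to 295 CPM in JA_JA, 325 to 367 in JA_W, 258 to 276 in W_JA and 245 to 263 in W_W.

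Mitosis genes mark dividing cells. Of 14 tested, 6 rose, 0 fell and 8 did not pass in JA_W against W_W (median 0.57). This was a smaller share called than the 64.9% of all genes, but a larger share called higher than their 33.8%. Among those that rose were CDKB1;1 (1.16 ± 0.33), the aurora kinase AUR2 (1.06 ± 0.34) and the cyclin CYCB1;4 (0.97 ± 0.32). After challenge, in JA_JA against W_JA, 9 rose and 0 fell (median 0.88), where 18.9% of all genes were called higher, among them CYCB1;3 (1.503 ± 0.40), CDC20.1 (1.46 ± 0.36) and CYCB1;2 (1.41 ± 0.35). The edgeR test called none with the challenge in either history and none in the interaction, and at an unadjusted p under 0.05 it gave 0 in JA_JA against JA_W, 1 in W_JA against W_W and 0 in the interaction. In W_JA against W_W the smallest p was that of KNOLLE (-0.73 ± 0.32, adjusted p = 0.108). The 16 listed genes summed to 9.72 to 19.96 CPM in JA_JA, 13.1 to 16.2 in JA_W, 7.79 to 8.50 in W_JA and 5.55 to 11.5 in W_W, and none was without a read. The stomatal lineage markers SPCH, MUTE, TMM and BASL summed to 2.66 to 5.65 CPM in JA_JA, 2.45 to 4.07 in JA_W, 1.09 to 1.89 in W_JA and 1.51 to 1.91 in W_W, and none of these was without a read. The trichome markers GL2 and MYB106 summed to 3.72 to 5.68 CPM in JA_JA, 4.22 to 5.34 in JA_W, 2.57 to 3.48 in W_JA and 2.05 to 2.58 in W_W. The epidermal markers ATML1, PDF1 and FDH summed to 123 to 162 CPM in JA_JA, 192 to 283 in JA_W, 98.8 to 157 in W_JA and 143 to 217 in W_W. The guard cell markers KAT1, FAMA, MYB60 and HT1 summed to 65.4 to 106 CPM in JA_JA, 69.3 to 76.9 in JA_W, 68.8 to 80.2 in W_JA and 41.6 to 60.9 in W_W, while phloem and xylem sums overlapped between all groups. Sums can hide markers that differ. In W_JA against W_W only KAT1 of the guard cell markers was called, with means of 36.3 and 18.8 CPM. In JA_JA against W_JA, 2 guard cell markers rose and 1 fell. PDF1 averaged 1.92 CPM in JA_JA and 0.289 in W_JA without overlap, while the epidermal sums of these groups overlapped. The sums that did not overlap move with history or with the challenge beside the maintenance genes, and their part in those results was not tested.

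**Figure D4:**
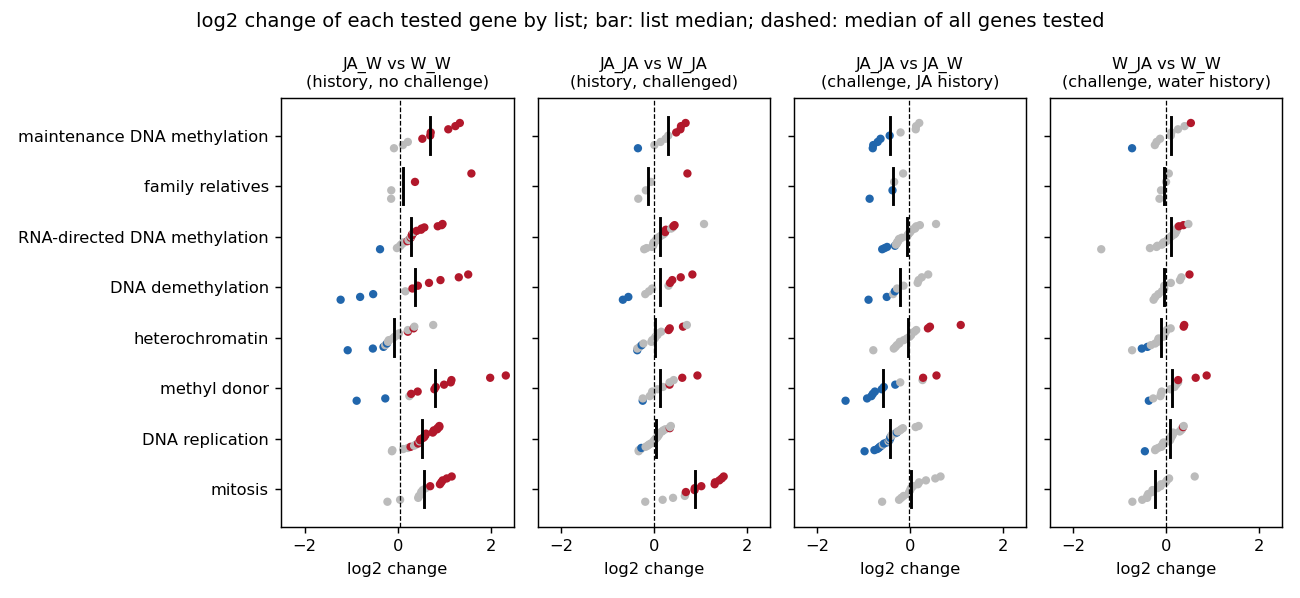
Log2 change of every tested gene (points, red called higher, blue called lower, grey not called) and the median (bar) of the maintenance genes and of the family relative, DNA replication, mitosis, methyl donor, RNA-directed DNA methylation, demethylation and heterochromatin lists, for the 4 pairwise comparisons, with the median of all genes dashed. The median of the 9 maintenance genes is 0.70 in JA_W against W_W and -0.44 in JA_JA against JA_W, and that of the DNA replication list is 0.52 and -0.43.

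RNA-directed DNA methylation sets new methylation with small RNAs. Of 23 tested genes, 12 rose, 1 fell and 10 did not pass in JA_W against W_W (median 0.29). This was a smaller share called than the 64.9% of all genes, but a larger share called higher than their 33.8%. At the top were AGO4 (0.97 ± 0.12), AGO6 (0.95 ± 0.20) and HEN1 (0.86 ± 0.09), the first pair being the small RNA binding proteins. In JA_JA against JA_W, 4 fell and 0 rose (median -0.07), a share near the 16.5% of all genes called lower. Among them were AGO6 (-0.60 ± 0.20), SUVH2 (-0.55 ± 0.08) and AGO4 (-0.49 ± 0.12). In JA_JA against W_JA, 5 rose and 0 fell (median 0.12), a share near the 18.9% of all genes called higher, with AGO4 at 0.45 ± 0.12, DCL3 at 0.42 ± 0.15 and MORC6 at 0.26 ± 0.09. In W_JA against W_W, HEN1 (0.37 ± 0.09) and SUVH9 (0.27 ± 0.08) rose and none fell (median 0.10). Of all genes 13.9% were called higher there. In the interaction 4 were lower, with HEN1 at -0.62 ± 0.13, where 10.4% of all genes were called lower.

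Active demethylation removes methylated cytosines by excision. Of 10 tested genes, 6 rose and 3 fell in JA_W against W_W (median 0.38), where 33.8% of all genes were called higher and 31.1% lower, with IDM3 (1.52 ± 0.22) and the end-processing phosphatase ZDP (1.32 ± 0.17) higher and the glycosylase DML2 (-1.23 ± 0.16) lower. In JA_JA against W_JA, 4 rose and 2 fell, where 18.9% of all genes were called higher and 21.2% lower. IDM3 was at 0.83 ± 0.22, DML2 at -0.67 ± 0.16 and IDM1 at 0.58 ± 0.16. In JA_JA against JA_W, 3 fell, namely DML3 (-0.89 ± 0.11), ZDP (-0.50 ± 0.16) and ROS3 (-0.33 ± 0.09). Of all genes 16.5% were called lower there. In W_JA against W_W 1 rose, ZDP (0.50 ± 0.17), where 13.9% of all genes were called higher. In the interaction 4 were lower, where 10.4% of all genes were called lower. ZDP was at -1.001 ± 0.23, DML3 at -0.62 ± 0.16 and APE1L at -0.57 ± 0.17. ROS1, the glycosylase whose own transcription is tied to methylation, gave 0.17 ± 0.10 in JA_W against W_W (edgeR adjusted p = 0.168) and rose by 0.40 ± 0.10 in JA_JA against W_JA (adjusted p = 0.00671); it was named after its values were seen.

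The heterochromatin list held 16 genes. In JA_W against W_W, 2 rose, 4 fell and 10 did not pass (median -0.08), a smaller share called than the 64.9% of all genes. H1.1 was at -1.07 ± 0.09, HTA12 at -0.53 ± 0.14 and ASI1 at 0.35 ± 0.12. In JA_JA against JA_W, 3 rose and 0 fell, where 15.4% of all genes were called higher and 16.5% lower. The risen genes were H1.1 (1.09 ± 0.09), H1.2 (0.43 ± 0.09) and the H2A.W variant HTA7 (0.38 ± 0.08). H1.1, a linker histone that limits the access of methyltransferases to heterochromatin, was the only gene of the list to pass in the interaction (0.72 ± 0.12, edgeR adjusted p = 0.00111). Of all genes 18.4% were called in the interaction. In JA_JA against W_JA 3 rose and 2 fell, where 40.1% of all genes were called. In W_JA against W_W 2 rose and 2 fell, where 26.8% of all genes were called. Of genes known to be silenced by DNA methylation, FWA had no read in any library, SDC had 28 reads over all 16, and QQS did not pass in any of the 4 pairwise comparisons, with -0.56 ± 0.32 in JA_W against W_W (adjusted p = 0.138).

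The genes whose levels followed each member most closely were taken by Pearson's r of log2 levels over the 16 libraries. These r values are descriptions, since the libraries fall into 4 groups. For DDM1 they were AT5G48830, Cpn60beta2 and AT2G14880 (r = 0.974 to 0.983), for MET1 AT5G19730, TUB3 and AT5G46640 (0.971 to 0.976), and for CMT2 AT5G53850, LPD1 and AT1G50450 (0.979 to 0.983). VIM3 was followed by AT3G14730, PHR1 and AT1G24580 (0.935 to 0.971), CMT3 by SCL30A, La2 and AT1G57610 (0.940 to 0.941), and VIM1 by AT2G40711, AT4G07825 and CBL9 (0.918 to 0.941). SUVH4, SUVH5 and SUVH6 had no gene above an r of 0.815, 0.857 and 0.823, reached by cPT4, AT3G17950 and AT2G03330. Among the 9 themselves, r was 0.938 between MET1 and DDM1 and 0.295 between CMT2 and CMT3.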

How the data were processed

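Leaf poly(A) RNA was sequenced as 50 bp single-end reads, per the labels' protocols, and the submitters' processing notes name TAIR10 as the genome, with HTSeq 0.9.1, STAR 2.6.1b and Trimmomatic 0.38 as tools and no settings. The authors deposited raw read counts per gene and CPM for each library. The deposited CPM, which are per the file headers scaled to depth, served only as a check and differed from those recomputed by at most 5.09e-11. Totals of 32190193 to 34319939 counts per library (median 34159442) set the precision.

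From the counts, genes were kept by the edgeR (4.0.16) filterByExpr rule (minimum count 10, minimum total 15), which left 19224 of 34262 genes and removed 15038. TMM factors ran from 0.888 to 1.14. The quasi-likelihood F-test (robust) was fitted to all 16 libraries with 1 mean per group (biological coefficient of variation 15.4%), two-sided, with Benjamini-Hochberg adjustment over all 19224 genes and a threshold of 0.05. Levels are TMM-scaled CPM. An SE is the log2 change divided by the square root of F. Intervals cover the spread between libraries. DESeq2 1.42.0, other scalings, filters, sample sets, a replicate block and leaving out single libraries were tried. The script was tested on simulated data.

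The members and lists were chosen with earlier results of these data known. All 9 members are named. From most lists and comparisons, up to 3 called genes with the largest absolute change are named. None is named for the heterochromatin list in JA_JA against W_JA or in W_JA against W_W. Where a list has no call, the 1 gene with its lowest p is named in some comparisons only. Likeness of pattern was taken from the 3 highest Pearson r per member. The labels call the libraries biological replicates and give no batch or date. Between replicates of a group, chi-squared per gene ran from 6.05 to 75.0 over 24 pairs, so none is a copy. Identifiers were matched to RefSeq TAIR10.1, where 32548 were found. EVD was listed but is not analysed here.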

Additional observations from a re-analysis of the deposited data

Results flagged for a closer look

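Dixon's test (critical value 0.829) was run on 36 groups of 4 values of the maintenance genes, where chance flags about 1 in 20. In it 6 values stood apart from the other 3 of their group, and those of CMT3 and SUVH6 are from the same library, W_W replicate 2. MET1 had 27.2 CPM in JA_W replicate 3, against 22.7 to 23.4 CPM in the others. VIM3 had 3.98 CPM in JA_W replicate 2, against 2.64 to 2.74 CPM. DDM1 had 6.67 CPM in JA_W replicate 1, against 7.13 to 7.17 CPM. CMT3 had 12.1 CPM in W_W replicate 2, against 8.49 to 8.75 CPM. SUVH6 had 8.52 CPM in W_W replicate 2, against 9.87 to 9.97 CPM, and VIM1 had 4.08 CPM in W_JA replicate 3, against 2.45 to 2.72 CPM.

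For DDM1 and VIM3 the challenge change differed between histories by the edgeR test of the interaction, by -0.66 for DDM1 and -1.03 for VIM3 on the log2 scale.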

How the results depend on the processing

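Over 45 member results (9 genes in 5 comparisons), 28 kept their direction and their side of the threshold in every setting. The calls that were lost or gained stand beside each gene in the report. The sign turned in 7 results that were called in neither setting. With library totals these were SUVH5 and SUVH6 in W_JA against W_W (-0.022 and -0.0089), SUVH4 in JA_W against W_W (-0.014) and SUVH6 in JA_JA against W_JA (-0.077). With upper-quartile scaling it was SUVH6 in JA_W against W_W (0.0085). Without JA_W replicate 1 and W_W replicate 4 together, a fit chosen after seeing the data, these were SUVH4 in JA_W against W_W (-0.0026) and the interaction of SUVH5 (-0.10). Leaving out single libraries moved SUVH5 in W_JA against W_W between -0.055 and 0.22, SUVH6 in JA_JA against W_JA between -0.053 and 0.12, and the interactions of SUVH5 and VIM1 between -0.089 and 0.19 and between -0.072 and 0.23. It moved the number of maintenance genes called between 3 and 5 in JA_JA against W_JA and between 1 and 3 in the interaction, and the number of all genes called in the interaction between 2344 (without JA_W replicate 2) and 4407. The cause was not tested. Library totals as scaling moved the median log2 change of all genes in W_JA against W_W to -0.123, against -0.003 with TMM, and in JA_W against W_W to -0.078, against 0.047 with TMM. DESeq2, RLE scaling, both other filters and the fits of only 2 groups lost no call of a maintenance gene. The replicate number as a block left 4749, 5676, 12208, 7168 and 3153 genes called, in W_JA against W_W, JA_JA against JA_W, JA_W against W_W, JA_JA against W_JA and the interaction, and changed no call of a maintenance gene. Only 5 of 24 same-numbered pairs correlated above 0.1 (r from -0.33 to 0.34) and 0 libraries correlated best with their own number, so the numbers were not taken as pairs. Depth limits VIM3 and SUVH5 most.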
